A study of Mus musculus with 65 samples.

Results

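The genes described here encode voltage-gated sodium, calcium and potassium channels and their close relatives in mouse embryonic stem cells: the subunits of sodium (Scn), calcium (Cacn), HCN (Hcn) and potassium (Kcn) channels. They were chosen by symbol alone, as every symbol in the deposited count files that begins with Kcn or Cacn, or with Scn or Hcn and a digit, leaving out names ending in os. This gave 141 of 24465 genes, with no measured value used in the choice. Of these, 138 encode proteins. Kcnq1ot1, Kcnmb4os1 and Kcnmb4os2 are non-coding RNAs whose symbols fit the rule.

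Cation channels set the electrical behaviour of a cell. Voltage-gated sodium and calcium channels open when the membrane depolarises, and most voltage-gated potassium channels then bring the potential back. Inward rectifier and two-pore-domain potassium channels hold the resting potential, and HCN channels pass a pacemaker current that opens on hyperpolarisation. Many voltage-gated pores work with auxiliary subunits that set their density and kinetics. In neural differentiation many neuronal channel genes belong to the late, terminal set, and many are repressed in other cells by REST, a zinc-finger repressor that binds the RE1 element. Polycomb repressive complex 2 (PRC2), which methylates lysine 27 of histone H3, marks many developmental promoters in embryonic stem cells, including CpG-rich ones.

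Polyadenylated RNA was sequenced from cells of an H3.3K27A line and an H3.3A knockout line, both made with CRISPR/Cas9, and from wild-type cells. At day 0 the cells were pluripotent and grew with leukaemia inhibitory factor (LIF). At days 3 and 6 they had been differentiated as embryoid bodies without LIF and with 10 µM retinoic acid. H3.3 is the histone H3 variant placed on chromatin outside replication, and alanine at position K27 cannot be methylated there. The labels do not say which of the 2 H3.3 genes carries K27A, or whether each line is 1 clone. A 2019 sequencing date covers wild type at days 0, 3 and 6, and a 2020 date covers all 3 genotypes at days 6 and 0. There were 2 libraries per group, except 1 for wild type of 2020 at day 0. Chromatin of wild-type cells at days 6 and 0 was profiled in biological duplicates for 2 methylated forms, H3.3K27me3 and H3K27me3, and for H3.3 and H3 themselves. Some deposited tables call the H3 and H3K27me3 antibodies H3.1 ones. Embryoid bodies are mixtures, so a lower level in bulk RNA can come from fewer cells of a type or from less RNA per cell, which cannot be told apart.

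Libraries held 6.97 to 12.71 M counts in 2019 and 14.27 to 22.03 M in 2020. H3f3a, the H3.3A gene, had 20.4 to 24.2 CPM (the usual depth-scaled count) in the 8 libraries of the edited lines and 114 to 129 CPM in the 3 wild-type libraries of 2020. The 2 H3.3 genes summed to 521 to 620 CPM in H3.3K27A, 895 to 1155 CPM in the knockout and 925 to 1007 CPM in that wild type. Both were called lower in H3.3K27A than in wild type at days 0 and 6. In that line, less H3.3 RNA and the K27A change cannot be told apart. The 10 pluripotency markers were all lower at day 6 than at day 0 in 2019, and 10 of 11 tested neuron markers were higher (median log2 change 2.85). Of the 10 endoderm markers 8 were higher and 2 lower, with a median log2 change of 6.57. In wild type of 2020, 2 of 11 neuron markers were higher and 2 were lower at day 6. The H3.3A knockout libraries of day 6 stood apart from each other, with summed neuron markers at 249 and 698 CPM and summed endoderm markers at 1795 and 1162 CPM. Wild type of that date had 449 and 251 CPM of neuron markers and 1045 and 1197 CPM of endoderm markers at day 6. The endoderm sum was already 1212 and 1175 CPM in the knockout and 1292 CPM in wild type at day 0 of 2020. In 2019 it fell from 998 and 1023 CPM at day 0 to 577 and 586 CPM at day 6, while 8 of its 10 markers rose. That sum is therefore not a measure of endoderm content. The neuron sum was already 622 and 646 CPM in pluripotent cells at day 0 of 2019, and 785 CPM in wild type at day 0 of 2020. It is therefore not a measure of neuron content either. Some genes that all cells use were listed near 0, with 0 counts for Kdm1a and 1 count for Ywhaz over the 17 libraries, against 17072 for Tbp (genes picked after their values were seen). A member listed at 0 is therefore not shown to be silent. The neuron markers Snap25, Syt1 and Elavl4 were also at or near 0.

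Of the 141 members, 88 passed the count filter in both years, 4 in 2019 alone, 18 in 2020 alone and 31 in neither. The 31 include the sodium pore genes Scn2a1, Scn3a, Scn10a and Scn11a, the Shaker-type genes Kcna2, Kcna3, Kcna4 and Kcna10, and 7 inward rectifier genes with Kcnj3, Kcnj6 and Kcnj8 among them. Kcng4, Kcnj8 and Scn3a were listed at 0 in every library, and 16 further members had 1 to 10 counts over all 17 libraries.

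Promoter sequence is shown for 4 members, since the chromatin results are read beside CpG content. Among protein-coding members whose RefSeq promoter entry matches the start used here, these had the 2 largest called rises in each of 2 day 0 classes, with and without Polycomb-type peaks. Kcnk9, with a larger fitted rise and both marks, had no such entry. Kcne3 and Kcnd3 carried H3.3K27me3 and H3K27me3 peaks in both duplicates, and Kcnmb2 and Kcnk16 carried neither. Kcne3 and Kcnmb2 encode auxiliary potassium subunits, Kcnd3 a Kv4 pore of the A-type current, and Kcnk16 a two-pore-domain channel. Each stretch runs from 250 bases before to 50 bases after the RefSeq start (GRCm38.p6, gene strand), and CpG dinucleotides are in capitals. Kcne3 lies at chr7:100176420-100176719 (+), Kcnd3 at chr3:105451640-105451939 (+), Kcnmb2 at chr3:31902453-31902752 (+) and Kcnk16 at chr14:20269220-20269519 (−).
Kcne3: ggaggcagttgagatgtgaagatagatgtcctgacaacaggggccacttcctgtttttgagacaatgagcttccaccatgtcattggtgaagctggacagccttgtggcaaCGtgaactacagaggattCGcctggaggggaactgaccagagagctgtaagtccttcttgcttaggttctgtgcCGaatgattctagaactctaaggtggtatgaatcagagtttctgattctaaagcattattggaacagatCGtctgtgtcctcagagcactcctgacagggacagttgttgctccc
Kcnd3: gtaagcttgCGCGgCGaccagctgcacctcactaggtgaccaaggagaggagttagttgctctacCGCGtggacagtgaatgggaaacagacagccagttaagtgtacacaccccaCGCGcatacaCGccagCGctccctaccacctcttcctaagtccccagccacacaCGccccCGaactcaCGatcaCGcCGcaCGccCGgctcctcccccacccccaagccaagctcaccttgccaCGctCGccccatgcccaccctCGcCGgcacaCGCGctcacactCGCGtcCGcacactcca
Kcnmb2: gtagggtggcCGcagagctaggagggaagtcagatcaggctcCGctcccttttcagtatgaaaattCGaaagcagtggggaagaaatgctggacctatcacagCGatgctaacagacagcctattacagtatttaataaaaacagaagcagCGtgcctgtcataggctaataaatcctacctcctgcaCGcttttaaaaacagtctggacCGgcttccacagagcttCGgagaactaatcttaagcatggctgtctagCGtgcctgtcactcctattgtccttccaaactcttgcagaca
Kcnk16: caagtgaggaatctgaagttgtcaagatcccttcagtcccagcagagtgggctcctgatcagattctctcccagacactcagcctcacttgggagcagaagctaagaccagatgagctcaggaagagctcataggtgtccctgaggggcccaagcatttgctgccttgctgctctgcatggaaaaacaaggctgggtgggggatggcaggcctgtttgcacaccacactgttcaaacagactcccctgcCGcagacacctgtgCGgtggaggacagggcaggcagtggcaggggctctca
The Kcnd3 stretch held 25 CpG dinucleotides, against 4 for Kcne3, 9 for Kcnmb2 and 2 for Kcnk16. The 2 marked starts thus differed widely in CpG content over these bases.

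An RE1-type motif was also searched, because the neuronal channel genes are textbook REST targets. The letters searched were CAGCACCNNGGACAG, on both strands, within 1000 bp of each annotated start. A match was found at 6 of 141 members (4.26%) and at 60 of 24323 gene starts (0.247%). The 6 are Scn2a1, a neuronal sodium pore, Scn3b, a sodium beta subunit, Hcn3, Kcnh4 of the ether-a-go-go family, Kcnk12, a silent two-pore-domain channel, and Kcnt1, a sodium-activated potassium channel. The matches are printed on the motif's strand with 5 bases on each side and the motif in capitals.
Scn2a1: gctttCAGCACCACGGACAGcacca
Scn3b: tggctCAGCACCACGGACAGtagcc
Hcn3: gccttCAGCACCACGGACAGcaaac
Kcnh4: aagttCAGCACCCTGGACAGccgca
Kcnk12: ggcgtCAGCACCGCGGACAGcgcat
Kcnt1: ggactCAGCACCGCGGACAGctccg
Their positions (GRCm38.p6) are chr2:65619961-65619985 (+) for Scn2a1, chr9:40269739-40269763 (−) for Scn3b, chr3:89159334-89159358 (+) for Hcn3, chr11:100759006-100759030 (−) for Kcnh4, chr17:87798581-87798605 (+) for Kcnk12 and chr2:25864071-25864095 (−) for Kcnt1. Matches in Hcn3, Kcnh4, Scn3b and Kcnt1 lay downstream of the start, by 811, 760, 535 and 288 bp, and those in Kcnk12 and Scn2a1 lay 599 and 796 bp upstream. A match is a string of letters and not a measured binding site. Rest itself fell at day 6 against day 0 in 2019 (log2 change −2.50, edgeR adjusted p = 1.31e-10), and had fallen by day 3 (−2.21). Log2 changes at day 6 in 2019 were 3.88 for Kcnt1, 2.34 for Scn3b, 0.85 for Hcn3 and −0.36 for Kcnh4. In wild type of 2020 they were −2.48 for Rest, 3.36 for Kcnt1, 0.90 for Scn3b, −0.19 for Kcnk12, −1.41 for Hcn3 and −2.11 for Kcnh4. A link between Rest and these genes was not tested.

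Most channel genes that changed with retinoic acid in 2019 rose. At day 6 against day 0, 54 of 92 tested members were higher, 19 were lower and 19 did not pass the edgeR quasi-likelihood test (Benjamini-Hochberg adjusted p below 0.05 over all genes). Over all 13593 genes tested, 41.4% were higher and 36.6% lower. The median log2 change of the 92 was 1.51, against 0.09 for all genes. Members listed at 0 at day 0, such as Kcnk9, Kcne3 and Kcnmb2, passed the count filter only through later libraries. Such members could only be called higher against day 0. The members were not matched to all genes by abundance, so these shares and medians are descriptions. At day 3 against day 0, 40 members were higher and 22 lower, beside 37.6% and 33.8% of all genes. At day 6 against day 3, 48 were higher and 15 lower, beside 29.4% and 27.9% of all genes. Without the first day 6 library, 9 were lower than at day 3. All 3 comparisons share libraries, so their counts are not independent.

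**Figure D1:**
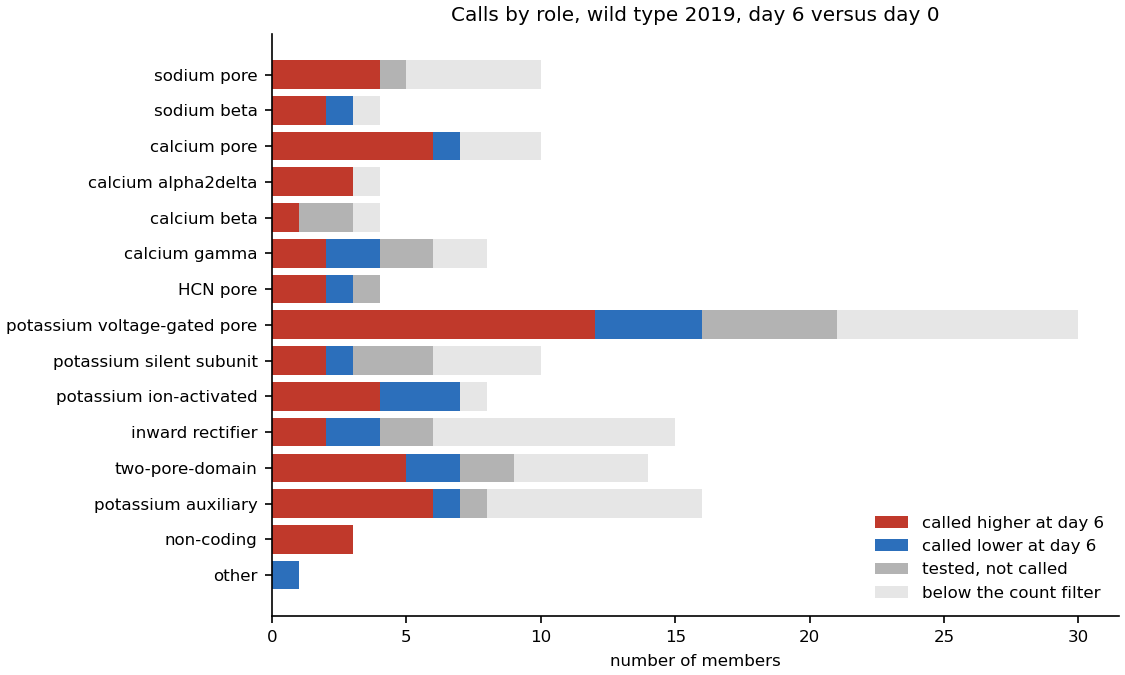
Members by role in wild type of 2019, day 6 versus day 0. Each bar counts the members of a role and is split into those called higher (red), called lower (blue), tested and not called (dark grey) and below the count filter (light grey); 6 of 7 tested calcium pore genes were higher.

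Of the calcium channel pores, 6 of 7 tested genes were higher and 1 was lower at day 6. Cacna1g, which encodes the low-voltage-activated T-type pore CaV3.1, had 1.77 and 1.69 CPM at day 0, 22.0 and 21.2 CPM at day 3, and 29.3 and 39.1 CPM at day 6. The groups did not overlap, and the day 6 libraries were the highest (log2 change from day 0 4.30 ± 0.23 SE, edgeR adjusted p = 2.03e-09). Cacna1h, the T-type pore CaV3.2, had 5.14 and 5.06 CPM at day 0, 17.2 and 18.1 CPM at day 3, and 77.4 and 80.0 CPM at day 6 (log2 change 3.95 ± 0.12, edgeR adjusted p = 2.01e-11). Both T-type genes were already above their day 0 levels at day 3, and the larger part of the Cacna1h rise in CPM came after day 3. The L-type pores Cacna1d and Cacna1c were higher at day 6 as well. Cacna1d had 7.83 and 8.41 CPM at day 6, against 0.804 and 0.750 CPM at day 0. Cacna1c had 7.75 and 8.14 CPM at day 6 and 0.804 and 0.469 CPM at day 0. Their log2 changes were 3.38 ± 0.31 and 3.71 ± 0.35 (edgeR adjusted p = 4.74e-07 and 5.21e-07). Cacna1s, the skeletal muscle L-type pore, was highest at day 3, with 0.643 and 0.375, then 4.86 and 4.35, then 2.14 and 3.93 CPM at days 0, 3 and 6.

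Cacna1a, the P/Q-type pore of presynaptic terminals, fell. It had 60.4 and 59.9 CPM at day 0, 44.2 and 37.5 CPM at day 3, and 26.7 and 25.8 CPM at day 6. No libraries of different days overlapped (log2 change from day 0 to day 6 −1.19 ± 0.10, edgeR adjusted p = 2.73e-07). Cacna1b, the N-type pore of the same terminals, dipped and then rose, with 4.98 and 5.90 CPM at day 0, 1.38 and 2.63 CPM at day 3, and 18.8 and 17.2 CPM at day 6 (log2 change 1.70 ± 0.22, edgeR adjusted p = 1.01e-05). All 3 tested alpha2delta genes, whose products carry calcium pores to the membrane, were higher at day 6. Cacna2d3 had 0.321 and 0.375 CPM at day 0, 0.405 and 0.825 CPM at day 3, and 27.2 and 23.6 CPM at day 6. Its rise came after day 3 (day 6 against day 0 log2 change 6.12 ± 0.32, edgeR adjusted p = 1.61e-09). Of the beta subunit genes 1 of 3 was higher, and of 6 gamma subunit genes 2 were higher and 2 lower. Cacng4 had 11.3 and 9.78 CPM at day 6 and 0.643 and 0.843 CPM at day 0, while Cacng8 had 2.44 and 2.01 CPM at day 6 and 8.20 and 7.68 CPM at day 0. Both encode proteins that also act as auxiliary subunits of AMPA receptors.

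Among the sodium pores, 4 of 5 tested genes were higher and none was lower. The neuronal pore Scn1a rose late, with 0.482 and 0.562, then 0.647 and 0.300, then 5.54 and 4.02 CPM at days 0, 3 and 6 (log2 change 3.15 ± 0.43, edgeR adjusted p = 2.07e-05). Scn8a, the NaV1.6 pore of the axon initial segment, was present throughout, at 17.5 and 13.5 CPM at day 6 and 7.88 and 6.65 CPM at day 0 (log2 change 1.12 ± 0.19, edgeR adjusted p = 0.000118). Scn4a, the skeletal muscle pore, had 1.11 and 1.37 CPM at day 6 and 0.161 and 0.187 CPM at day 0. Scn9a, a sensory neuron pore, did not pass, with 4.34 and 4.12 CPM at day 0, 1.13 and 0.825 CPM at day 3, and 3.99 and 5.94 CPM at day 6. Its day 3 level was lower than at day 0 (log2 change −2.10). Of the sodium beta subunits, Scn2b and Scn3b were higher at day 6. Markers of other excitable cells also changed: of 7 tested cardiomyocyte markers 0 were higher at day 6 and 2 were lower, and of 6 tested skeletal and smooth muscle markers 2 were higher and 4 lower. Their part in these levels was not tested.

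The HCN genes moved in different directions. Hcn4, the main pacemaker subunit of the sinoatrial node, had 0.643 and 0.0937 CPM at day 0, 4.05 and 4.20 CPM at day 3, and 10.9 and 9.69 CPM at day 6 (log2 change 5.06 ± 0.42, edgeR adjusted p = 1.81e-07). Hcn2 fell, with 17.4 and 20.2 CPM at day 0, 6.31 and 5.18 CPM at day 3, and 6.28 and 6.13 CPM at day 6 (log2 change −1.61 ± 0.18, edgeR adjusted p = 2.35e-06). Hcn3 dipped at day 3, with 5.14 and 5.15, then 2.43 and 2.25, then 9.97 and 8.50 CPM at days 0, 3 and 6. Its day 6 level was above that of day 0 (log2 change 0.85 ± 0.21, edgeR adjusted p = 0.00244).

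Of the voltage-gated potassium pores, 12 of 21 tested genes were higher at day 6, 4 were lower and 5 did not pass. Kcnd3 had 0 and 0.0937 CPM at day 0, 3.97 and 3.23 CPM at day 3, and 10.9 and 8.23 CPM at day 6. A single count lay behind its day 0 level, so the ratio of day 6 to day 0 was 164 with a counting interval from 29.1 to 6486 (edgeR adjusted p = 8.5e-08). Kcnc1, the fast Kv3.1 pore of fast-spiking neurons, had 10.6 and 7.68 CPM at day 6 and 0.161 and 0.281 CPM at day 0. Kcna6 reached its level by day 3, with 0.321 and 0.187, then 3.56 and 2.93, then 3.62 and 3.66 CPM at days 0, 3 and 6.

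The 4 voltage-gated potassium pores that fell were Kcnh3 and Kcnh6 of the ether-a-go-go family, Kcna7 and Kcnd1. Kcnh3 had 11.9 and 10.2 CPM at day 0, 0.890 and 1.35 CPM at day 3, and 0.591 and 1.10 CPM at day 6 (log2 change −3.72 ± 0.32, edgeR adjusted p = 2.38e-07). Kcnh6 had 0.591 and 0.274 CPM at day 6 and 1.13 and 2.06 CPM at day 0. Kcna7 had 0 and 0.0914 CPM at day 6, against 4.34 and 2.62 CPM at day 0. Kcnh4, which carries an RE1-type match, was listed at 0 in both day 3 libraries and had 0.482 and 2.44 CPM at day 0, which makes it at least 14.7-fold lower at day 3. At day 6 it had 1.85 and 0.640 CPM, overlapping the day 0 range.

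**Figure D2:**
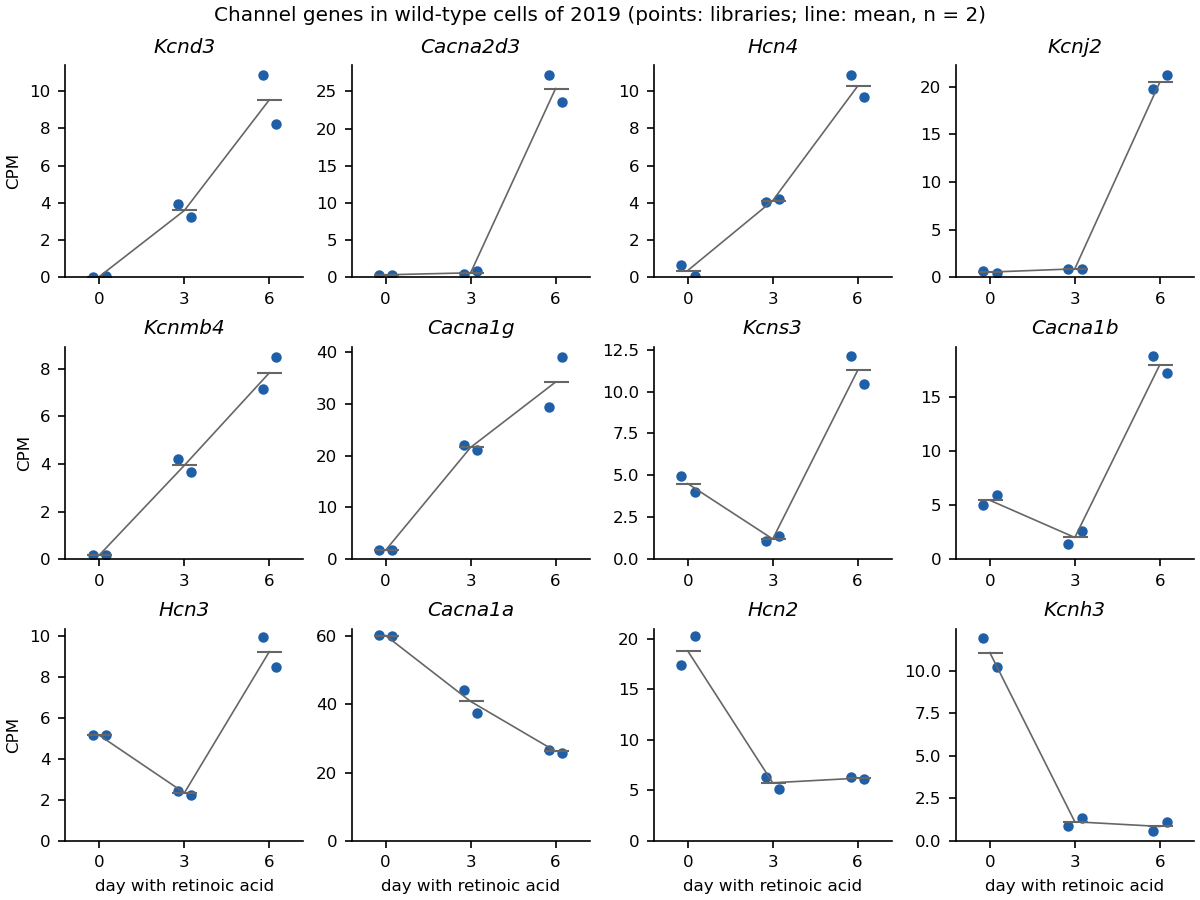
Levels of 12 channel genes in wild type of 2019 at days 0, 3 and 6. Points are libraries in CPM on linear axes from 0 and the line joins the group means (n = 2); Kcns3, Cacna1b and Hcn3 were lowest at day 3 and highest at day 6, while Cacna1a, Hcn2 and Kcnh3 were highest at day 0.

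The potassium channels that set the resting potential split. Of 6 tested inward rectifier genes 2 were higher and 2 lower. Kcnj2, the classical strong inward rectifier Kir2.1, had 0.643 and 0.469 CPM at day 0, 0.890 and 0.901 CPM at day 3, and 19.7 and 21.2 CPM at day 6 (log2 change 5.23 ± 0.28, edgeR adjusted p = 2.02e-09). Of 9 tested two-pore-domain genes 5 were higher and 2 lower. Kcnk3, the acid-sensitive channel TASK-1, had 17.5 and 19.7 CPM at day 6 and 1.45 and 0.375 CPM at day 0. Kcnk6 had 30.6 and 25.1 CPM at day 6 and 9.64 and 7.97 CPM at day 0. Kcnk5 (TASK-2) fell, with 82.4 and 87.7, then 43.9 and 40.9, then 31.2 and 30.3 CPM at days 0, 3 and 6 (log2 change −1.47 ± 0.09, edgeR adjusted p = 8.23e-09). Kcnk1 (TWIK-1) fell by a like amount, with 35.7 and 27.6, then 21.5 and 22.4, then 10.9 and 11.7 CPM (log2 change −1.47 ± 0.15, edgeR adjusted p = 9.83e-07). Kcnk9 (TASK-3) was listed at 0 at day 0 and had 3.32 and 1.65 CPM at day 6, at least 14.5-fold higher against a floor of 3 counts over the group.

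Auxiliary potassium subunits rose more often than they fell, with 6 of 8 tested genes higher and 1 lower. Kcnmb4, the neuronal beta4 subunit of the BK channel, had 0.161 and 0.187 CPM at day 0, 4.21 and 3.68 CPM at day 3, and 7.16 and 8.50 CPM at day 6. Kcnmb4os1 and Kcnmb4os2, annotated opposite to it, were also higher at day 6. How the counting treated strand is not given in the sources used here, so reads of Kcnmb4 and of these 2 genes cannot be told apart. Kcne3 and Kcnmb2 were listed at 0 at day 0 and were at least 10.4-fold and 9.20-fold higher at day 6. Of the ion-activated potassium channels 4 were higher and 3 lower: Kcnma1, the BK pore, had 2.81 and 2.83 CPM at day 6 and 0.321 and 0.469 CPM at day 0, and Kcnt1 had 5.54 and 8.78 CPM at day 6 and 0.161 and 0.656 CPM at day 0. Kcnn4, the intermediate-conductance calcium-activated channel, was lower, at 0.295 and 0.549 CPM at day 6 and 2.57 and 1.78 CPM at day 0. Kcnq1ot1, the imprinted antisense transcript within Kcnq1, had 87.7 and 59.2 CPM at day 6 and 33.4 and 40.0 CPM at day 0 (log2 change 0.99 ± 0.16, edgeR adjusted p = 8.33e-05), with the same limit on strand for Kcnq1.

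The dip at day 3 was shared with the summed neuron markers, which stood at 622 and 646 CPM at day 0, 91.4 and 123 CPM at day 3, and 1813 and 1553 CPM at day 6. Among the 5 members whose log2 levels over the 6 libraries were most like that sum were Kcns3, Hcn3, Cacnb1 and Cacna1b, with Pearson's r of 0.988, 0.986, 0.983 and 0.962. These are descriptions over 6 libraries of 3 days. Kcns3, a silent potassium channel subunit, had 4.98 and 4.03, then 1.05 and 1.35, then 12.1 and 10.4 CPM (day 6 against day 0 log2 change 1.35 ± 0.22, edgeR adjusted p = 9.24e-05). The sum was already high in the pluripotent cells of day 0, so likeness to it does not show a neuronal profile. The part of neuron number in these levels was not tested.

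A list of 54 partners of cation channels, genes outside the symbol rule that anchor, localise or accompany the pores, gave a mixed picture. Of 36 tested, 17 were higher and 9 lower at day 6 against day 0 in 2019, with a median log2 change of 0.26. Fgf14, an intracellular fibroblast growth factor that binds sodium channels, had 4.65 and 4.02 CPM at day 6 and 0.161 and 0.0937 CPM at day 0 (log2 change 5.07). Unc79, a subunit of the NALCN leak channel complex, had 16.9 and 10.9 CPM at day 6 and 0.804 and 0.187 CPM at day 0 (5.03). Dpp6, an auxiliary subunit of Kv4 pores such as Kcnd3, rose with a log2 change of 3.39. Among the partners that fell, Cnga3, a cyclic-nucleotide-gated channel of cone cells, had 0.0739 and 0.0914 CPM at day 6 and 4.98 and 3.09 CPM at day 0. Ryr1, the skeletal muscle calcium release channel, had 4.87 and 6.95 CPM at day 6 and 30.9 and 28.9 CPM at day 0.

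The wild-type libraries of 2020 gave a smaller median rise among the members. The share of members called higher was close to that of all genes, while the share called lower was smaller. Of 106 tested, 39 were higher and 26 lower at day 6 against day 0, beside 36.0% and 34.8% of all genes, and the median log2 change was 0.90, against 0.08 for all genes. The single day 0 library was assumed to vary like the other groups. Cacna1d had 11.1 and 12.6 CPM at day 6 and 0.438 CPM at day 0 (log2 change 4.74 ± 0.55, edgeR adjusted p = 3.91e-05). Kcnd3 had 6.62 and 7.15 CPM at day 6 and 0.110 CPM at day 0. Scn7a was at least 10.3-fold higher, with 1.93 and 1.44 CPM at day 6 and none at day 0. Hcn2, Kcnk5 and Kcnh3 were again lower, with Kcnk5 at 29.9 and 30.7 CPM at day 6 and 92.3 CPM at day 0. Kcnk7 was listed at 0 in both day 6 libraries and was at least 8.04-fold lower.

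Of 48 members called in both years, 43 (89.6%) had the same direction, 30 higher and 13 lower, beside 95.4% of all 8345 genes called in both years. The other 5 had opposite directions, among them Cacna1b, Hcn3 and Cacna2d2, which were higher at day 6 in 2019 and lower in 2020. Hcn3 had 2.93 and 2.05 CPM at day 6 and 6.63 CPM at day 0 in 2020. Cacna1b had 5.51 and 5.36 CPM at day 6 and 10.2 CPM at day 0, and Cacna2d2 had 4.27 and 2.79 CPM at day 6 and 6.24 CPM at day 0. The summed neuron markers, 449 and 251 CPM at day 6 in 2020, were at 785 to 897 CPM in the 5 day 0 libraries of that date. The difference between the years was not tested, because sequencing date and year of culture cannot be told apart.

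**Figure D3:**
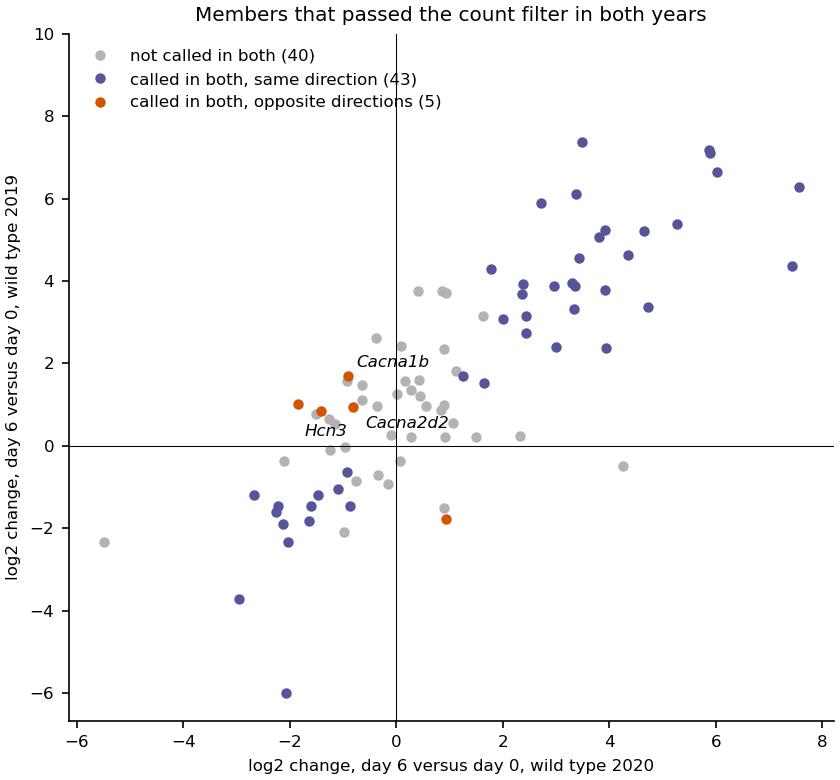
Log2 change, day 6 versus day 0, of the 88 members that passed the filter in both years: wild type of 2019 on the vertical axis and of 2020 on the horizontal. Blue points (43) were called in both with the same direction, orange points (5, of which 3 are named) in both with opposite directions, and grey points (40) not in both.

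In 2020 the time course could be read in 3 genotypes. At day 6 against day 0, 45 members were higher and 32 lower in H3.3K27A (39.5% and 37.2% of all genes), and 45 and 31 in the knockout (40.8% and 36.4%). In all 3 genotypes, 34 members (32.1%) were higher and 23 (21.7%) lower, beside 31.7% and 30.9% of all genes. Hcn4 was higher in each, with 4.44 and 4.76 CPM at day 6 and 0.201 and 0.325 CPM at day 0 in H3.3K27A. Kcnk4 and Kcng3, a two-pore-domain channel and a silent subunit, were among the 5 largest falls of every genotype. Kcng3 fell by 3.03 on the log2 scale in H3.3K27A, by 3.29 in the knockout and by 2.97 in wild type.

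Promoters of channel genes carried H3K27me3 peaks more often than all gene starts, and H3.3 peaks less often. A filtered H3K27me3 peak of both duplicates lay within 1000 bp of the start of 58 members at day 6 and 82 at day 0 (41.1% and 58.2%), against 10.9% and 17.9% of 24323 gene starts. H3.3K27me3 peaks lay at 4 members at day 6 and 41 at day 0 (2.84% and 29.1%), against 2.65% and 11.1% of all starts. H3.3 peaks lay at 17 members at day 6 and 32 at day 0 (12.1% and 22.7%), against 25.2% and 37.5% of all starts. H3 peaks lay at 1 member at day 6 and 5 at day 0 (0.709% and 3.55%, against 2.17% and 5.30%). No test is attached to these shares, since genes are not replicates. Enrichments were low: at a minimum of 5, H3K27me3 peaks were left at 0 members at day 6 and 3 at day 0.

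**Figure D4:**
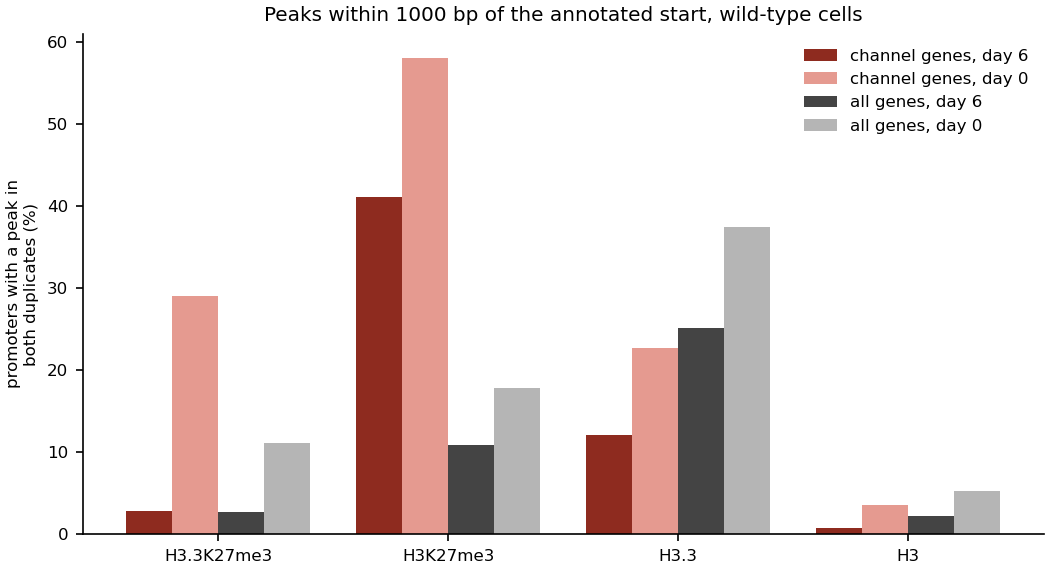
Share of promoters with a filtered peak in both duplicates, in percent, for the 141 members (red) and 24323 gene starts (grey), with day 6 (dark) left of day 0 (light) for each antibody. Members stood at 58.2% for H3K27me3 at day 0, against 17.9% of all starts.

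H3K27me3 at day 0 was common on potassium pores and their silent partners, at 23 of 30 voltage-gated pore promoters and 9 of 10 silent subunit promoters. It lay at 7 of 10 calcium pore promoters, 9 of 14 two-pore-domain promoters and 8 of 15 inward rectifier promoters. Sodium pores had it at 3 of 10 and auxiliary potassium subunits at 4 of 16. CpG content moved with the marks: the median member promoter of 2001 bp held 126 CpG dinucleotides where both marks were present at day 0, 100 with H3K27me3 alone and 37 with neither. The same medians over all genes were 96, 85 and 48.

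H3K27me3 peaks stayed at 54 of the 82 members that had one at day 0 (65.9%, against 51.4% of all genes), and 4 members gained one. H3.3K27me3 peaks stayed at 3 of 41 (7.32%, against 14.6% of all genes). The H3.3K27me3 libraries had 33.6 and 37.8 M tags at day 6 and 81.2 and 55.2 M at day 0. Over the genome they held 26215 and 14483 filtered peaks at day 6 and 14796 and 12690 at day 0. The part of depth in the loss at these promoters was not tested. With 1 duplicate used alone, 9 and 17 members had an H3.3K27me3 peak at day 6, against 55 and 61 at day 0. The 4 members with an H3.3K27me3 peak at day 6 were Kcnj13, Kcnk1, Kcna6 and Kcnd2. At Kcnk1 the enrichment, pileup over the genome-wide mean as deposited by the authors, was 3.05 and 2.79 at day 6 and 3.14 and 3.47 at day 0. Kcnj13, an inward rectifier of epithelia, gained its peak, with enrichments of 3.29 and 2.58 at day 6. The Kcnj13 start also lies in broad deposited regions of H3 and H3.3, of 80579 and 157383 bp. Kcna6 and Kcnd2 rose in RNA while they kept the mark, with enrichments of 2.82 and 2.58, and of 2.58 and 2.79, at day 6.

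In 2019, members were more often higher than lower at day 6 in each of 3 classes of day 0 marks, which was not so in 2020. Of the 39 members with both marks at day 0, 31 were tested in 2019, and 19 (61.3%) were higher and 4 lower at day 6 (median log2 change 1.69). Of the 43 with H3K27me3 alone, 28 were tested, and 18 (64.3%) were higher and 6 lower (1.64). Of the 57 with neither, 32 were tested, and 16 (50%) were higher and 9 lower (0.90). Over all genes, 70.7% were higher with both marks, 65.4% with H3K27me3 alone and 33.6% with neither, and the medians were 2.19, 1.33 and −0.12. In wild type of 2020, 18 of 32 tested members with both marks were higher and 4 lower, 12 of 35 with H3K27me3 alone were higher and 10 lower, and 9 of 37 with neither were higher and 12 lower. The shares of all genes that were higher in those 3 classes were 57.8%, 54.5% and 30.1%. These are descriptions of members that passed a count filter.

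The authors' deposited table for H3K27me3 gives a signal per region in each library. Its regions overlap the promoters of 92 members, and at a false discovery rate below 0.05 the signal was lower at day 6 at 55 and higher at 4. Over all promoters in a region, 52.1% were lower and 2.94% higher. Regions can span many kilobases, so a value is not that of the promoter alone. In the authors' deposited table, where a difference is day 0 minus day 6 in log2, the largest falls included 0.80 at Kcnk6, 0.71 at Cacnb3 and 0.69 at Kcnab3. The same deposited table gives 0.53 at Hcn4, 0.52 at Kcnk12, 0.30 at Kcnd3 and −0.04 at Kcnk1, the last with a false discovery rate of 0.36. Among the 4 that were higher at day 6 in the authors' deposited table were Scn9a (−0.44), Cacng6 (−0.34) and Kcna7 (−0.34). In the authors' deposited table for H3.3, 41 members lie in a region and 28 were lower at day 6, beside 60.8% of all promoters in a region.

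At day 0 no channel gene was called between genotypes when all libraries of 2020 shared 1 fit. With H3.3K27A against wild type, 0 of 106 members were called by edgeR and 0 by DESeq2, beside 1.73% of all genes, and 11 had an unadjusted p below 0.05. With the knockout against wild type the counts were 0 and 0, beside 0.122% of all genes, and 1 had an unadjusted p below 0.05. Between H3.3K27A and the knockout they were 0 and 0, beside 1.27%, and 10 had an unadjusted p below 0.05. In fits of the compared groups alone, 9 members were higher and 4 lower in H3.3K27A against wild type, 1 was higher in the knockout against wild type, and 4 were higher and 2 lower in H3.3K27A against the knockout.

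At day 6, H3.3K27A differed from wild type at 2 members, beside 2.04% of all genes. Kcnk1 was higher, with 34.8 and 31.4 CPM in H3.3K27A and 20.4 and 23.3 CPM in wild type (log2 difference 0.60 ± 0.12, edgeR adjusted p = 0.0373). Cacna1i, the T-type pore CaV3.3, was lower, with 0.354 and 0.441 CPM in H3.3K27A and 1.96 and 2.18 CPM in wild type (−2.37 ± 0.46, edgeR adjusted p = 0.0362). Neither call was kept when any 1 of the 4 day 6 libraries was left out. In a fit of these groups alone 8 members were higher and 17 lower, and DESeq2 gave 3 and 2.

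The knockout differed from wild type at day 6 at 10 members, 6 higher and 4 lower, beside 6.98% and 4.42% of all genes. Kcnk12, which carries an RE1-type match, had 8.64 and 4.79 CPM in the knockout and 0.847 and 0.785 CPM in wild type (log2 difference 3.02 ± 0.32, edgeR adjusted p = 0.00137). Kcnd3 had 33.8 and 22.5 CPM in the knockout and 6.62 and 7.15 CPM in wild type (2.03 ± 0.28, edgeR adjusted p = 0.00366). Cacna1d had 30.1 and 23.2 CPM in the knockout and 11.1 and 12.6 CPM in wild type, and Kcnk6 had 62.5 and 39.9 against 22.6 and 27.3 CPM. Kcnk5 and Kcnh3 were also higher. Kcnk1 was lower, with 14.8 and 12.9 CPM in the knockout and 20.4 and 23.3 CPM in wild type (−0.66 ± 0.12, edgeR adjusted p = 0.0112), as were Scn2b, Kcnma1 and Cacng3. The knockout libraries did not overlap those of wild type at these genes. Beside these calls, 5 of 10 tested endoderm markers were higher and 1 lower in the knockout, 4 of 10 pluripotency markers were higher, and 0 of 11 neuron markers passed. Their part in the result was not tested. Without the second knockout library of day 6, 11 members were higher and 32 lower, and without the first, 11 and 5. Without the first wild-type library the counts were 1 and 0, and without the second, 3 and 0. In a fit of the compared groups alone they were 0 and 0.

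H3.3K27A and the knockout differed at 19 of 106 members at day 6 (7 higher and 12 lower, beside 9.03% and 9.64% of all genes). Kcnk1 was higher in H3.3K27A, at 34.8 and 31.4 CPM, than in the knockout, at 14.8 and 12.9 CPM (log2 difference 1.26 ± 0.12, edgeR adjusted p = 0.000265). Cacna1a had 21.2 and 20.9 CPM in H3.3K27A and 9.37 and 16.5 CPM in the knockout (0.70 ± 0.20, edgeR adjusted p = 0.042). Cacng3, Scn2b and Cacng6 were also higher in H3.3K27A. Kcnk12 was lower, with 0.708 and 0.736 CPM in H3.3K27A and 8.64 and 4.79 CPM in the knockout (−3.20 ± 0.33, edgeR adjusted p = 0.000356). Kcnd3 had 3.54 and 5.59 CPM in H3.3K27A and 33.8 and 22.5 CPM in the knockout (−2.63 ± 0.30, edgeR adjusted p = 0.000511). Among the other 10 that were lower were Cacna1e, Kcnk10, Cacna1d, Kcnq5, Kcng1, Kcnt2, Kcne3, Kcnk6 and Kcnk5. With the first knockout library of day 6 left out, 7 members were higher and 29 lower, and with the second left out, 19 and 12. Without the first H3.3K27A library the counts were 2 and 2, and without the second, 3 and 5. In a fit of these groups alone, 1 was higher and 2 were lower. The calls of Kcnk1, Kcnk12 and Kcnd3 were kept in all 9 alternatives run, while that of Scn2b was lost in 6 of 9, those of Kcne3 in 5 of 9 and Kcnk10 in 5 of 8, and those of Cacna1e in 4 of 7 and Cacna1a in 4 of 9. Beside these calls, 2 of 10 tested endoderm markers were higher in H3.3K27A and 6 lower. Of the tested markers of neurons, pluripotency, skeletal and smooth muscle, and endothelium and blood, 2 each were lower and 0 higher. Their part in the result was not tested.

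Two-pore-domain channels made up all the members whose time course differed between genotypes by the interaction term. Between H3.3K27A and wild type that was Kcnk1, 1 of 106 members beside 0.766% of all genes, and between H3.3K27A and the knockout it was Kcnk1, Kcnk12, Kcnk5 and Kcnk6, beside 5.39%. Kcnk1 had 34.8 and 31.4 CPM at day 6 and 27.4 and 25.3 CPM at day 0 in H3.3K27A. In the knockout it had 14.8 and 12.9 CPM at day 6 and 34.3 and 30.4 CPM at day 0, and in wild type of 2020 20.4 and 23.3 CPM at day 6 and 40.0 CPM at day 0. It was thus higher at day 6 than at day 0 in H3.3K27A (log2 change 0.33 ± 0.12, edgeR adjusted p = 0.0295). It was lower at day 6 in the knockout (−1.23 ± 0.12, edgeR adjusted p = 1.03e-05) and in wild type (−0.87 ± 0.14, edgeR adjusted p = 0.000361). Its interaction with wild type missed the threshold in 7 of 11 alternatives. Of the interactions with the knockout, that of Kcnk1 was kept in all 13 alternatives, while that of Kcnk6 was lost in 8 of 13, Kcnk5 in 5 and Kcnk12 in 4. The Kcnk1 promoter was also among the 4 with an H3.3K27me3 peak at day 6 in wild type. It lies in broad deposited regions of H3K27me3, H3.3 and H3 as well, of 251862, 167962 and 366164 bp. A link between that peak and the RNA of Kcnk1 was not tested. Between the knockout and wild type 0 members were called by edgeR, beside 0.0813% of all genes, and 2 by DESeq2, and 8 had an unadjusted p below 0.05. That these 4 are two-pore-domain genes was seen after the fit and was not tested.

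**Figure D5:**
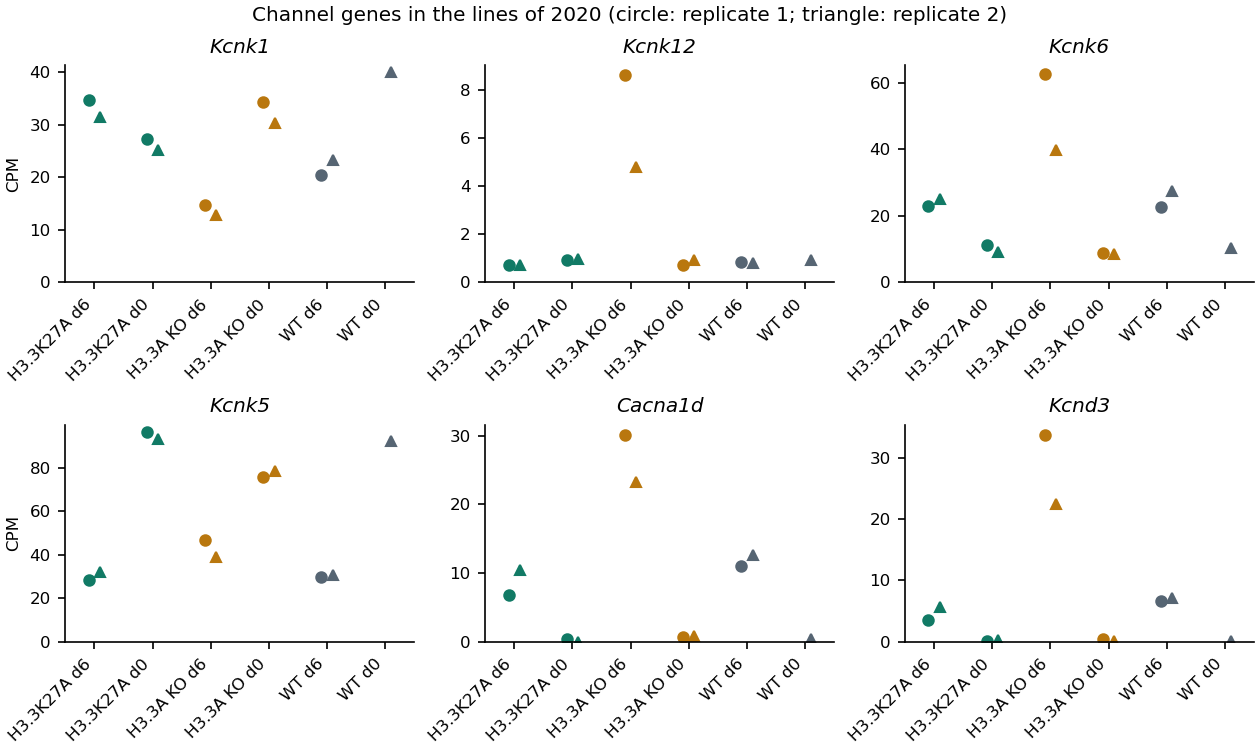
Levels of 6 channel genes in the 2020 libraries, in CPM on linear axes from 0, for H3.3K27A, H3.3A knockout and wild type, with day 6 left of day 0 in each. Points are libraries, with circles for replicate 1 and triangles for replicate 2 (n = 2, wild type at day 0 n = 1). Kcnk12 was between 4.79 and 8.64 CPM in the knockout at day 6 and below 1 CPM elsewhere.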

How the data were processed

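RNA was measured in 17 libraries of 9 groups and chromatin in 16 libraries. The deposited RNA values are unnormalised read counts by gene symbol, which the authors made with STAR 2.5.2a on mm10 and HTSeq, per the submitters' processing notes. Each ChIP library joins 3 runs, and its peaks were called with MACS2 2.2.6, without a control, at p 0.01, a minimum length of 1000 bp and a maximum gap of 5000 bp, per the file headers. Each deposited peak has a fold enrichment (a ratio) and a −log10 p-value, per the file headers. The authors' filtered lists, whose deposited score is constant, gave the intervals. The authors' differential tables (DiffBind, per the submitters' processing notes) hold a scaled read signal, a log2 difference, a p-value and its false discovery rate by region, per the file headers.

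Counts were tested in edgeR 4.0.16 (R 4.3.3) with filterByExpr, TMM scaling and quasi-likelihood F-tests over all genes, in 1 fit per sequencing date, with Benjamini-Hochberg adjustment at 0.05. CPM values use the TMM-scaled library size. Standard errors are approximate and follow log2 changes after ±. The labels do not say whether RNA duplicates came from separate cultures, so p-values measure the spread between these samples. Intervals of ratios (95%) and floors of 3 counts cover counting error only. A promoter is 1000 bp on each side of the 5′-most curated RefSeq start (GRCm38.p6), and a peak counts where both duplicates overlap it. RefSeq promoter sequences were matched by symbol for 103 of 141 members.

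Genes were named by role and by fixed ranks: the 5 largest called changes in each direction per contrast, pore subunits of sodium, calcium and HCN channels, members called in an interaction, the 3 smallest adjusted p per edited line against wild type, members with H3.3K27me3 at day 6, the 5 most like the summed neuron markers, and Kcnq1ot1. Others are examples of a role or list. Some members that the rule names are not reported here. The members, lists and tests were chosen with earlier results of these data known. Same-numbered replicates did not vary together (correlations from −0.36 to 0.14), so no pairing was used. In simulated counts for day 6 against day 0 of 2019, over 13593 genes, 80 of 98 genes changed by a log2 of 1 and 94 of 97 changed by 2 were recovered, and 3 unchanged genes were called. For H3.3K27A against wild type at day 6, over 14760 genes, these were 71 of 98, 93 of 97 and 4. Alternatives were DESeq2 1.42.0, RLE scaling, no count filter, only the groups compared, a replicate block, leaving out each library, and for peaks a wider window, a minimum overlap, a minimum enrichment and either duplicate. Any curated start was added after seeing the data.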

Additional observations from a re-analysis of the deposited data

Results flagged for a closer look

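For 4 channel genes the day 6 against day 0 change differed between genotypes by the interaction term itself (edgeR quasi-likelihood test, Benjamini-Hochberg over all genes). For Kcnk1 (TWIK-1) the log2 change in H3.3K27A minus that in wild type was 1.20 ± 0.19 (edgeR adjusted p = 0.0254), and minus that in the knockout 1.56 ± 0.17 (edgeR adjusted p = 0.00205). Both its H3.3K27A libraries of day 6 lay above both of day 0, while its knockout and wild-type libraries of day 6 lay below those of day 0. For Kcnk12 the change in H3.3K27A minus that in the knockout was −3.41 ± 0.55 (edgeR adjusted p = 0.00967). For Kcnk5 it was −0.81 ± 0.14 (edgeR adjusted p = 0.0126), and for Kcnk6 −1.33 ± 0.30 (edgeR adjusted p = 0.0377). The comparisons of Kcnk1 share its H3.3K27A libraries. Against wild type, the knockout's change in Kcnk12, Kcnk5 and Kcnk6 did not pass (differences of 3.19, 0.76 and 1.30, edgeR adjusted p = 0.0975, 0.109 and 0.191), with 1 wild-type library at day 0. The knockout libraries of day 6 differ in their summed neuron and endoderm markers, although neither sum is a measure of cell content. The part of that difference in these values was not tested.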

How the results depend on the processing

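The time contrasts within wild type of 2019 and 2020 and within each edited line kept counts within 1.5 times of the reported ones under DESeq2, RLE scaling, no count filter, a replicate block and each left-out library, except as follows. At day 6 against day 3, 8 members were lower with DESeq2, and 9 to 15 with a library left out. In the knockout's time course 19 were lower with only the groups compared. The edited-line comparisons rest on single libraries. With a library left out, the knockout against wild type at day 6 gave 1 to 11 higher and 0 to 32 lower, and H3.3K27A against wild type 0 and 0. H3.3K27A against the knockout gave 2 to 19 higher and 2 to 29 lower. With only the groups compared these counts were 0 and 0, 8 and 17, and 1 and 2. At day 0 only the groups compared gave 1 higher for the knockout against wild type, 9 higher and 4 lower for H3.3K27A against wild type, and 4 higher and 2 lower for H3.3K27A against the knockout; no count filter gave 1 lower for H3.3K27A against wild type. For H3.3K27A against wild type at day 6, DESeq2 gave 3 higher and 2 lower, no count filter 3 and 2, and RLE scaling 2 higher. Among interactions, left-out libraries gave 0 to 5 higher and 0 to 14 lower for the knockout minus wild type, 0 higher for H3.3K27A minus wild type, and 1 to 11 higher and 0 to 11 lower for H3.3K27A minus the knockout. DESeq2 gave 2 higher for the knockout minus wild type and 2 higher for H3.3K27A minus the knockout. No count filter gave 3 higher for the knockout minus wild type, 1 lower for H3.3K27A minus wild type, and 2 higher and 5 lower for H3.3K27A minus the knockout. Only the groups compared gave 6 lower for H3.3K27A minus wild type. The replicate block, which has no basis in the labels, gave 0 and 0 members for H3.3K27A against wild type at day 6, 7 lower for H3.3K27A against the knockout, and 0 for the interaction with wild type; it moved no other count of calls by over 1.5 times. The Kcnk1 interaction with the knockout passed in all 13 alternatives, and that with wild type was lost in 7 of 11 (adjusted p up to 0.155). The interactions of Kcnk6, Kcnk5 and Kcnk12 with the knockout were lost in 8, 5 and 4 of 13 (adjusted p up to 0.157, 0.0872 and 0.0626).

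Without the first and without the second knockout library of day 6, Kcnq1ot1 stood at 0.66 and −0.45 (log2) and Scn8a at 0.70 and −0.79 in the knockout against wild type. In H3.3K27A against the knockout, Kcnq1ot1 stood at −0.59 and 0.53 and Cacna1h at −0.48 and 1.02, and the Cacna1h interaction with the knockout at −0.55 and 0.95. The cause was not tested. Peaks were mostly of low enrichment: with at least 5, members with a peak at day 6 and day 0 numbered 0 and 0 for H3.3K27me3, 0 and 3 for H3K27me3, 0 and 1 for H3.3 and 0 and 0 for H3. With either duplicate enough, they numbered 22 and 75 for H3.3K27me3 and 4 and 13 for H3, and 32 for H3.3 at day 6. With a window of 2500 bp, 7 had H3.3K27me3 at day 6. With 1 duplicate left out, 9 to 17 had H3.3K27me3 at day 6 and 55 to 61 at day 0, 20 to 29 had H3.3 at day 6, and 1 to 4 had H3 at day 6 and 9 at day 0. Depth limits members with few counts, and a value listed at 0 shows no absence. RLE and DESeq2 scaling moved the median of all genes by less than 0.1 (log2).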
